A study of Sus scrofa with 19 samples.

Results

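The voltage-gated calcium channel subunits of the pig left ventricle were examined in 19 RNA-seq libraries, 1 per pig. The 9 genes were CACNA1C, CACNA1D, CACNA1G, CACNA1H, CACNA1I, CACNB2, CACNA2D1, CACNA2D2 and CACNA2D3, chosen by symbol in the gene table of the study and joined by Ensembl gene ID to the raw counts. They are 9 of the 25879 genes in the count files. All 9 passed the filter on low counts, which kept 13552 genes; CACNA1D and CACNA2D2 passed it only when the libraries labelled RemoLV were included, and 7 of the 9 passed without them. For CACNA1C the pairing of symbol and Ensembl ID is that of the study's table; the reference list of gene names gives the symbol to another ID, so that which gene model these counts cover rests on that pairing.

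The study compared different models of cardiac fibrosis in female large white pigs with Control animals. DOX (n = 5) received free doxorubicin and MYO (n = 5) the liposomal doxorubicin-citrate complex Myocet, each at 60 mg/m2 in 3 cycles, and both were sampled at 3 months, earlier than planned because the animals were unwell. RemoLV (n = 3) underwent 90 min of balloon occlusion of a coronary artery followed by reperfusion, and the posterior wall, remote from the infarct, was taken at 6 months. Hyper (n = 3) carried a stent that narrowed the aortic isthmus and so loaded the ventricle with pressure, and the anterior wall was taken at 6 months. Control (n = 3), with anterior wall taken at 6 months, is called sham-operated in the labels, whereas the methods of the study describe the sequenced controls as untreated pigs matched in age. The follow-up of the drug-treated pigs was shorter than that of Control, so that drug and follow-up time cannot be told apart in these comparisons. The numbers in the names of the count files fall into separate runs for the drug groups, for RemoLV, and for Hyper with Control. What these runs stand for is not stated. Any difference that goes with them cannot be told apart from that of DOX, MYO or RemoLV against Control.

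Library totals ran from 9527710 to 20370209 counts with a median of 14527230. The sample names of the study's own gene table did not match those of the count files. Every one of its 19 columns ranked the genes as a single count file does (Spearman 1.0, against at most 0.992 for the remaining files), yet 8 columns named another group than that file did. The table's Control 1 to 3 were the files labelled RemoLV 1 to 3, its RemoLV 1 to 3 were the files labelled Control 3, 2 and 1, and MYO1 and DOX5 were exchanged. Nothing in the files decides which naming is right. Values below follow the labels of the count files, and those under the table's names are given where the comparisons are. The 3 libraries labelled RemoLV also went against their label as left ventricle. MYL2, the ventricular myosin regulatory light chain, lay between 18.6 and 115 CPM, which are counts scaled to library size, there and between 8975 and 18077 CPM in the other 16. MYL4, the atrial light chain, lay between 6029 and 8130 CPM there and between 0.55 and 21.9 CPM elsewhere.

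A voltage-gated calcium channel opens when the membrane depolarizes and lets calcium into the cell through a single large pore subunit, whose 4 homologous repeats surround the ion path. L-type pores, CACNA1C (Cav1.2) above all in the working ventricle and CACNA1D (Cav1.3) in atrium and pacemaker tissue, carry the long-lasting calcium current. Cav1.2 opens at strong depolarization and starts the calcium release that drives contraction, whereas Cav1.3 opens at more negative potentials and contributes to pacemaking. T-type pores, CACNA1G (Cav3.1), CACNA1H (Cav3.2) and CACNA1I (Cav3.3), open near the resting potential and are known from pacemaker cells, fetal heart and neurons. A cytosolic beta subunit such as CACNB2 brings L-type pores to the membrane and tunes their gating, and an extracellular alpha2delta subunit, encoded by CACNA2D1, CACNA2D2 or CACNA2D3, raises their number at the surface and is the binding site of gabapentin in the first and second of these genes.

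The pore genes differ in the ring of acidic residues that selects calcium, and these codons are shown because they separate L-type from T-type members. Each sequence is 27 bases of the coding strand of the RefSeq model on Sscrofa11.1, written from 5′ to 3′ with the codon of the selectivity filter in capitals. Repeat 4 was read within a single exon in all 5 genes.
CACNA1C, chr5:69428260-69428286, plus strand, exon 38: tgtgccacagggGAGgcatggcaggac
CACNA1D, chr13:35876014-35876040, plus strand, exon 37: tgtgcaacagggGAGgcctggcaggaa
CACNA1G, chr12:26903351-26903377, plus strand, exon 32: gtatccacaggtGACaactggaacggc
CACNA1H, chr3:40640537-40640563, minus strand, exon 32: gtgtccaccgggGACaactggaacggg
CACNA1I, chr5:8604868-8604894, minus strand, exon 32: gtctccactggtGACaactggaacggg
The codon is GAG, glutamate, in both L-type genes and GAC, aspartate, in all 3 T-type genes. Repeat 3 divides the genes in the same way, and in the L-type genes its codons lie beside an exon junction.
CACNA1C, spliced from both sides of the junction: gtctccacctttGAGgggtggccagag
CACNA1D, spliced from both sides of the junction: gtgtccacgttcGAGggctggcctgcg
CACNA1G, chr12:26892265-26892291, plus strand, exon 24: ctggcctctaagGATggctgggtggat
CACNA1H, chr3:40646333-40646359, minus strand, exon 24: ctctcatccaagGACggctgggtgaac
CACNA1I, chr5:8614546-8614572, minus strand, exon 25: ctggcttccaagGACggctgggtgaac
In repeats 1 and 2 the codon was GAG or GAA, glutamate, in all 5 genes.

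CACNA1C, the pore of the main cardiac L-type channel, had the highest per-kilobase level of the pore genes in Control, Hyper, DOX and MYO. Its level was 79.2, 76.5 and 82.6 CPM in the Control libraries and 65.1, 76.3 and 83.9 CPM in Hyper. It was 85.4, 85.4, 74.9, 62.5 and 84.7 CPM in DOX and 51.4, 91.7, 74.1, 75.5 and 64.9 CPM in MYO. These groups overlapped. The libraries labelled RemoLV gave 60.2, 61.2 and 48.2 CPM, all below the lowest Control library. The log2 fold change against Control was -0.49 in RemoLV (SE 0.17, adjusted p = 0.0241 by edgeR's quasi-likelihood test with Benjamini-Hochberg adjustment over all genes tested), against -0.02 in DOX, -0.15 in MYO and -0.08 in Hyper, none of which passed the threshold of 0.05. The RemoLV call was lost without RemoLV 3 (adjusted p = 0.106) or Control 3 (adjusted p = 0.0686), and with library totals in place of TMM scaling the value was 0.02 (adjusted p = 0.940), so that its direction rests on the scaling. By library totals CACNA1C in DOX was 0.41 and called higher (adjusted p = 0.0365), close to the shift of 0.42 that this scaling gave the median of all genes. In bulk tissue, fewer cells of a type and less RNA per cell cannot be told apart, here and in each result that follows.

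CACNA1D, the L-type pore of atrial and pacemaker cells, was close to undetected outside the libraries labelled RemoLV. Control held 4, 3 and 0 of its counts, Hyper 0, 2 and 4, DOX 4, 0, 3, 5 and 1, and MYO 2, 2, 7, 2 and 3. The libraries labelled RemoLV held 29, 27 and 51 counts, or 2.04, 1.52 and 4.55 CPM, and stood above the highest of the other 16 libraries, which was 0.494 CPM. The log2 fold change of RemoLV against Control was 4.0 (SE 0.77). Since the gene passed the filter only through these libraries, its test is given from the fit of all genes with no filter on low counts, where the value was 3.99 (adjusted p = 0.00051). In DOX, MYO and Hyper the fitted values were 0.17, 0.61 and -0.16, with standard errors of 0.87, 0.85 and 1.02, so that changes of severalfold could not be detected at these counts.

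CACNA1H, the T-type gene with the highest per-kilobase level in each group, had its lowest mean in Control, at 7.99, 12.9 and 5.99 CPM. The DOX libraries gave 15.5, 14.6, 17.8, 17.1 and 14.9 CPM and the MYO libraries 11.6, 18.5, 29.7, 20.4 and 21.7 CPM. All 5 DOX libraries lay above Control, and MYO overlapped it through its first library alone. The libraries labelled RemoLV reached 89.9, 48.3 and 72.7 CPM, above the other 16. Hyper was spread over 7.83, 46.2 and 29.2 CPM, from within the Control range to just under the lowest library labelled RemoLV.

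Against Control, the log2 fold change of CACNA1H was 2.96 in RemoLV (SE 0.46, adjusted p = 5.79e-05) and 1.18 in MYO (SE 0.41, adjusted p = 0.0272). The MYO call was lost without MYO 3, Control 1 or Control 3, with adjusted p from 0.0641 to 0.132. In DOX the value was 0.83 (SE 0.41, adjusted p = 0.109), which passed without Control 2 (adjusted p = 0.0496), in a fit of DOX and Control alone (adjusted p = 0.0227) and with library totals (1.19, adjusted p = 0.0278). In Hyper it was 1.62 (SE 0.44, unadjusted p = 0.00183, adjusted p = 0.127), and leaving out Hyper 1 brought it to 2.06 (adjusted p = 0.0125) while leaving out Control 2 brought it to 1.98 (adjusted p = 0.0137).

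CACNA1G, the T-type pore of pacemaker tissue, was low throughout. Its level was 1.49, 0.653 and 1.34 CPM in Control and 0.824, 1.43 and 5.10 CPM in Hyper. MYO, at 3.72, 6.44, 4.16, 3.46 and 3.98 CPM, lay above every Control library. DOX, at 2.87, 2.37, 4.13, 4.83 and 1.26 CPM, did so except for DOX 5. The libraries labelled RemoLV gave 1.90, 2.76 and 4.19 CPM, above Control and within the range of DOX and MYO. Against Control its log2 fold change was 1.92 in MYO (SE 0.53, adjusted p = 0.00805) and 1.43 in DOX (SE 0.53, adjusted p = 0.0374). The DOX call was lost without DOX 3, DOX 4 or any 1 of the Control libraries (adjusted p from 0.0555 to 0.131), whereas the MYO call was kept in all such fits. In RemoLV the value was 1.34 (SE 0.58, adjusted p = 0.0638), which passed by DESeq2 (adjusted p = 0.0397), in a fit of RemoLV and Control alone (adjusted p = 0.0436) and with library totals in place of TMM scaling (1.90, adjusted p = 0.0103). In Hyper it was 1.09 (SE 0.58, adjusted p = 0.323), and -0.04 without Hyper 3. CACNA1G was the T-type gene that did not set the libraries labelled RemoLV apart: against the mean of the other groups its log2 difference was 0.23 (SE 0.42, adjusted p = 0.689), where CACNA1H gave 2.05 (SE 0.29) and CACNA1I 3.33 (SE 0.61).

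CACNA1I, a T-type pore known mainly from neurons, was at the floor of 3 counts or fewer per library in Control, with 1, 1 and 3 counts, and in Hyper, with 0, 1 and 1. DOX held 14, 5, 2, 3 and 9 counts and MYO 1, 5, 2, 7 and 6. The libraries labelled RemoLV held 22, 3 and 44 counts, so that the second of them lay among the DOX and MYO libraries. Of the 69 counts summed over the libraries labelled RemoLV, 44 came from RemoLV 3, on which the ratio there leans. From the summed counts, the ratio to Control was 14.2 in RemoLV (95% interval 5.80 to 45.1), 4.12 in DOX (1.60 to 13.5) and 2.89 in MYO (1.06 to 9.80). These intervals cover counting error only and not the spread between pigs. By edgeR's test, which uses that spread, RemoLV passed (adjusted p = 0.00356) and DOX and MYO did not (adjusted p = 0.127 and 0.276). No ratio is given for Hyper, since both groups were at the floor.

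CACNB2, the main beta subunit of the cardiac L-type channel, was lower in MYO and RemoLV than in Control. It measured 33.9, 33.1 and 27.9 CPM in Control and 34.3, 32.0 and 23.5 CPM in Hyper. In DOX it was 28.7, 31.3, 29.0, 22.1 and 29.9 CPM, and these groups overlapped. MYO, at 19.8, 18.6, 21.9, 23.5 and 24.9 CPM, and the libraries labelled RemoLV, at 20.3, 13.2 and 10.8 CPM, lay below every Control library. Its change against Control on the log2 scale was -1.10 in RemoLV (SE 0.20, adjusted p = 0.00025) and -0.54 in MYO (SE 0.17, adjusted p = 0.0179). The MYO call was lost without Control 1 (adjusted p = 0.0659) and with library totals in place of TMM scaling, where the value was -0.12 (adjusted p = 0.643). In DOX and Hyper the values were -0.17 (SE 0.17) and -0.08 (SE 0.19), neither called. Between DOX and MYO the difference was 0.37 (SE 0.15, unadjusted p = 0.0245, adjusted p = 0.695).

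CACNA2D1, the alpha2delta subunit of the working myocardium, had the highest CPM of the members in each group and was highest in Control, at 218, 171 and 305 CPM. DOX gave 112, 125, 123, 96.4 and 129 CPM, MYO 117, 113, 95.9, 96.1 and 112 CPM and the libraries labelled RemoLV 120, 114 and 134 CPM. All of these lay below the lowest Control library. Hyper had 205 CPM in its first library, within the Control range, and 123 and 105 CPM in the others. The log2 fold change against Control was -0.98 in DOX (SE 0.19, adjusted p = 0.00049), -1.12 in MYO (SE 0.19, adjusted p = 0.00017) and -0.92 in RemoLV (SE 0.21, adjusted p = 0.00183). With library totals in place of TMM scaling it was -0.52 in DOX and -0.65 in MYO, both still called, and -0.37 in RemoLV, not called (adjusted p = 0.109). In Hyper it was -0.68 (SE 0.21, unadjusted p = 0.00482, adjusted p = 0.142), and it passed without Hyper 1 (-1.02, adjusted p = 0.0170) or Control 2 (-0.86, adjusted p = 0.0109). Against the mean of the other groups the libraries labelled RemoLV did not stand apart for this gene (-0.22, SE 0.17, adjusted p = 0.307).

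CACNA2D2, an alpha2delta subunit best known from brain, had the largest log2 fold change of the 9 members in RemoLV against Control. Its counts numbered 1, 4 and 3 in Control, while Hyper had 5, 3 and 1, DOX 5, 8, 1, 7 and 3, and MYO 4, 4, 8, 5 and 2. In the libraries labelled RemoLV it had 130, 257 and 322 counts, or 9.15, 14.5 and 28.7 CPM, where the highest of the other 16 libraries had 0.678 CPM. The log2 fold change against Control was 6.53 (SE 0.60). This gene too passed the filter only through these libraries, and with no filter the value was 6.51 (adjusted p = 6.74e-08). DOX and MYO gave 0.90 and 0.95 (SE 0.69 in each), neither called.

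CACNA2D3, an alpha2delta subunit likewise known from neurons, differed widely among libraries of one group. It measured 0.821, 1.90 and 0.212 CPM in Control and 0.550, 0.677 and 7.84 CPM in Hyper. DOX gave 8.99, 8.48, 1.33, 1.04 and 0.336 CPM and MYO 4.28, 1.52, 1.34, 0.866 and 6.94 CPM. In Hyper 1 library, and in DOX and MYO 2 libraries each, were severalfold above the rest of their group. The libraries labelled RemoLV, at 39.7, 36.3 and 30.0 CPM, were close together and above all others. Their log2 fold change against Control was 5.12 (SE 1.13, adjusted p = 0.00128), while DOX, MYO and Hyper gave 1.99 (SE 1.05), 1.54 (SE 1.07) and 1.59 (SE 1.14), none called. Without Hyper 3 the Hyper value was -0.71, so that its sign rests on that library.

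**Figure D1:**
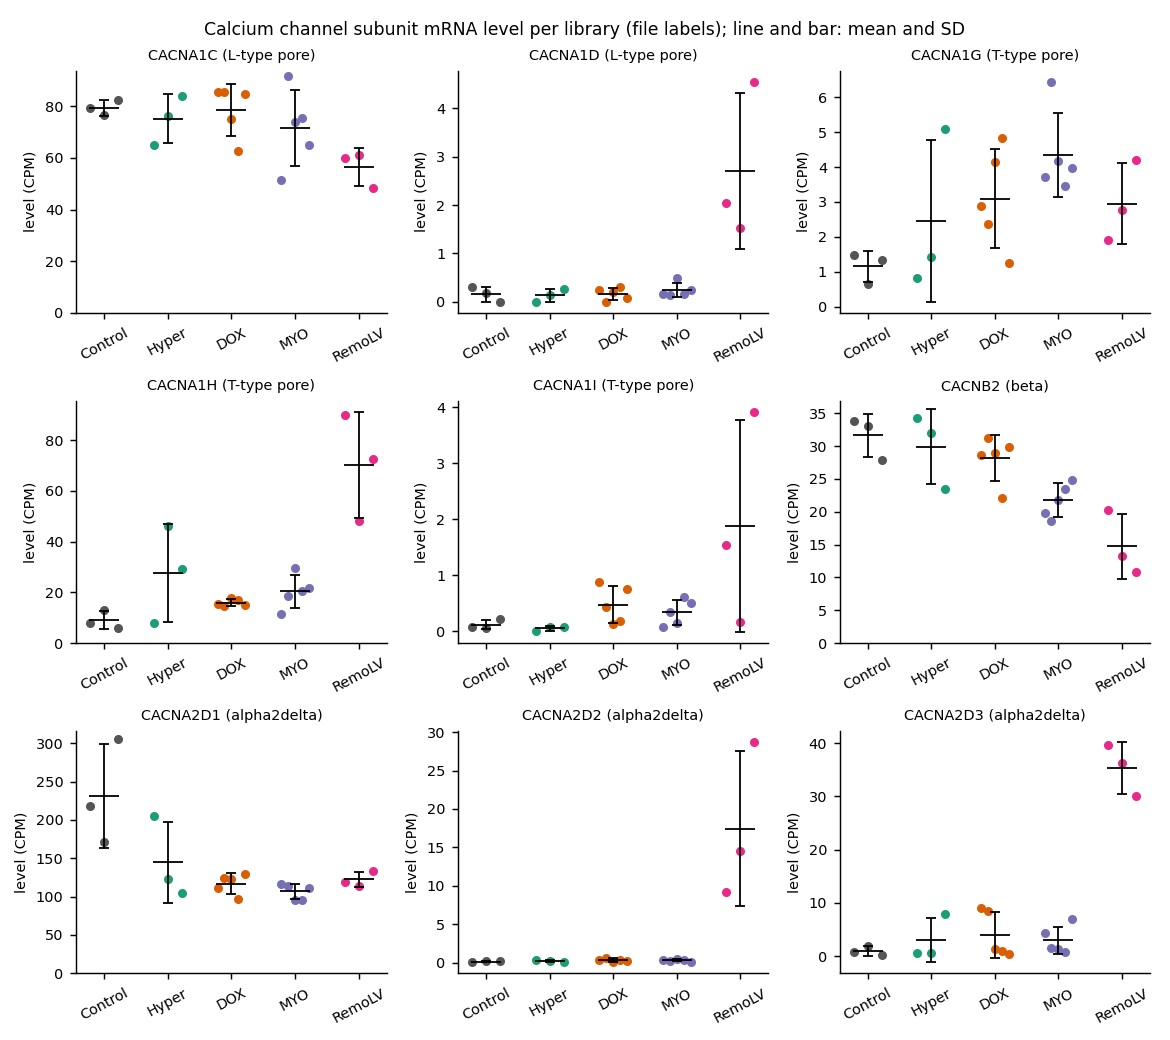
The 9 panels plot the level of each subunit gene in CPM on a linear axis, with 1 point per library, a line at the group mean and a bar of 1 SD, by the labels of the count files. CACNA2D2 and CACNA2D3 are high in the 3 libraries labelled RemoLV (9.15 to 28.7 CPM and 30.0 to 39.7 CPM), and CACNA2D1 is highest in Control (171 to 305 CPM).

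Levels of different genes were compared per kilobase of RefSeq exon. CACNA2D1 ranked first in each group, from 24.3 ± 7.12 CPM per kb in Control (SD, n = 3) to 11.2 ± 1.04 in MYO (SD, n = 5). CACNA1C ranked second in Control, Hyper, DOX and MYO, at 10.6 ± 0.403 CPM per kb in Control (SD, n = 3). It ranked 3 in the libraries labelled RemoLV, at 7.54 ± 0.961 CPM per kb, behind CACNA1H at 8.77 ± 2.61 (SD, n = 3), and these neighbours lay within their spread. CACNA2D2 and CACNA2D3 reached 3.07 ± 1.78 and 3.64 ± 0.504 CPM per kb there (SD, n = 3), while CACNB2 stood at 1.22 ± 0.409. The place of CACNB2 depends on the length used, since its exons sum to 12061 bases and its coding part to 1971 bases; per kb of coding length it ranked second in Control, Hyper, DOX and MYO. By that length CACNA2D3, at 10.8 ± 1.49 CPM per kb, ranked second in the libraries labelled RemoLV, within its spread of CACNA1H, and CACNA1C, at 8.71 ± 1.11, ranked 4 (SD, n = 3).

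The T-type genes made up 10.3% ± 3.43 of the per-kilobase level of the 5 pore genes in Control (SD, n = 3). Their share was 18.0% ± 3.54 in DOX, 23.2% ± 4.20 in MYO (SD, n = 5 each), 24.6% ± 13.1 in Hyper and 53.4% ± 9.01 in the libraries labelled RemoLV (SD, n = 3 each). Every DOX library (15.2% to 23.1%) and MYO library (18.8% to 28.9%) was above every Control library (7.32% to 14.0%), and Hyper ran from 10.7% to 36.6%. Most of this share was CACNA1H. Among the alpha2delta genes, CACNA2D2 held 15.2% ± 7.06 in the libraries labelled RemoLV and at most 0.967% in any other library, and CACNA2D3 held 18.9% ± 4.43 there and at most 7.29% elsewhere (SD, n = 3). Per kb of coding length the share of CACNA2D2 was 9.38% ± 4.67 there (SD, n = 3) and at most 0.558% elsewhere. Shares within a library do not rest on the scaling between libraries, but a higher share of one gene is also a lower share of the rest. These shares were not tested.

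**Figure D2:**
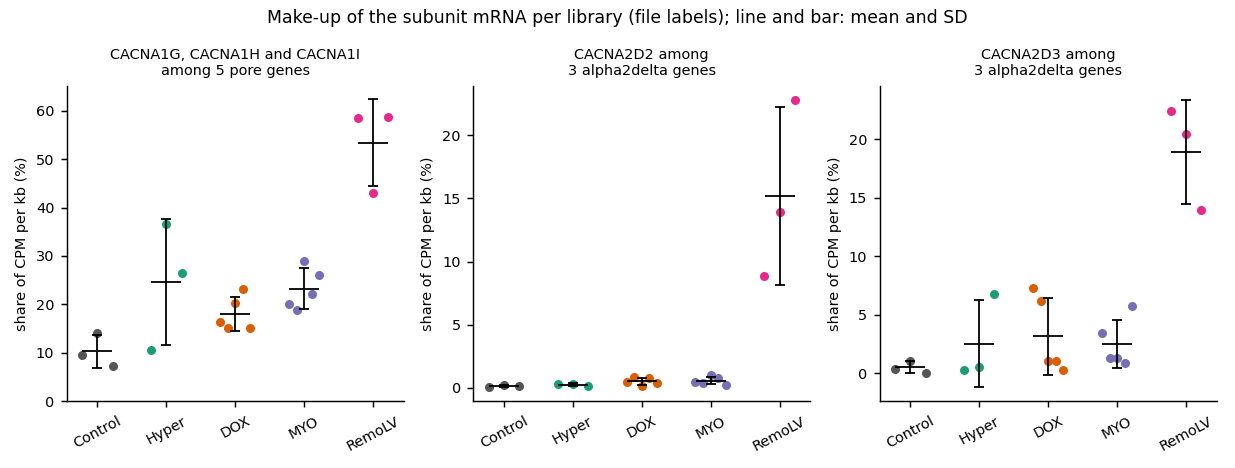
The panels plot, for each library, the percentage of the per-kilobase level held by CACNA1G, CACNA1H and CACNA1I among the 5 pore genes, by CACNA2D2 and by CACNA2D3 among the 3 alpha2delta genes, with a line at the mean and a bar of 1 SD. The T-type share is lowest in Control (7.32% to 14.0%) and highest in the libraries labelled RemoLV (43.0% to 58.7%).

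Counted over the members, the 4 comparisons with Control, which share the same 3 Control libraries, differed in how many genes passed. In DOX, 1 of 9 was higher (CACNA1G) and 1 lower (CACNA2D1), beside 21.0% of all tested genes called higher and 21.1% called lower. In MYO, 2 were higher (CACNA1G, CACNA1H) and 2 lower (CACNB2, CACNA2D1), beside 20.7% and 21.7%. These shares are near the background. In RemoLV, 5 were higher (CACNA1D, CACNA1H, CACNA1I, CACNA2D2, CACNA2D3) and 3 lower (CACNA1C, CACNB2, CACNA2D1), beside 23.1% and 24.0%; of the 5, CACNA1D and CACNA2D2 had passed the filter only through these libraries, and DESeq2 called all 9 members. With library totals in place of TMM scaling, an alternative added after the data were seen, the split of higher and lower members was 6 and 1 for RemoLV, 3 and 1 for DOX and 2 and 1 for MYO. The median log2 fold change of the 9 members was 0.83 for DOX, 0.95 for MYO, 2.96 for RemoLV and -0.08 for Hyper, against medians of 0.03, 0.02, 0.02 and 0.01 over all genes. Over the 7 members that passed the filter without the libraries labelled RemoLV, the medians were 0.83, 1.18, 1.34 and -0.08 in the same order. With CACNA1I at its ratio of summed counts the medians of the drug groups and RemoLV were the same, and without it that of Hyper was 0.07, of the opposite sign. In Hyper, edgeR called 0 members, and it called 0% of all genes in either direction. Without adjustment, 2 members (CACNA1H, CACNA2D1) and 2418 of 13552 genes had a p under 0.05, and DESeq2 called 1 member, CACNA1H (adjusted p = 0.0173). Under library totals the median over all genes moved up by 0.42 for either drug, 0.50 for RemoLV and 0.16 for Hyper, and values under that scaling are to be read against this shift.

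Free and liposomal doxorubicin were compared directly at the same dose. No member differed (0 of 9, edgeR), beside 0% of genes called in either direction. At an unadjusted p under 0.05 there was 1 member, CACNB2, and 960 genes, and DESeq2 called 0 members. The log2 difference of DOX from MYO was -0.48 (SE 0.41) for CACNA1G, -0.35 (SE 0.34) for CACNA1H and 0.13 (SE 0.16) for CACNA2D1. A call against Control in MYO alone, as for CACNA1H, is therefore not a shown difference between the drugs.

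The contrast of both drug groups with Hyper keeps its direction under either naming, since neither naming moves a library into or out of these sets. It had 0 of 9 members called (edgeR), beside 15.8% of genes higher and 16.9% lower. Without adjustment 2 members had a p under 0.05, CACNA1I (2.85, SE 1.15, adjusted p = 0.0650; Hyper was at the floor, so this fitted value is no bound) and CACNA2D1 (-0.37, SE 0.17, adjusted p = 0.0946). DESeq2 called CACNA1I alone (adjusted p = 0.0437), as did edgeR without the 3 libraries labelled RemoLV (adjusted p = 0.0250), an alternative added after the data were seen. CACNA1H was lower by -0.62 (SE 0.33, adjusted p = 0.165), and by -1.06 without Hyper 1 (adjusted p = 0.00993). Without Hyper 3, CACNA1G gave 1.71 (adjusted p = 0.0121) and CACNA2D1 -0.56 (adjusted p = 0.0231).

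Under the names of the study's table, the libraries here called RemoLV become Control, and many signs turn. DOX against Control then had 1 member higher (CACNB2) and 5 lower (CACNA1D, CACNA1H, CACNA1I, CACNA2D2, CACNA2D3), beside 15.0% and 14.6% of genes. MYO had 2 higher (CACNA1C, CACNB2) and the same 5 lower, beside 14.8% and 14.4%. RemoLV had 3 higher (CACNA1C, CACNB2, CACNA2D1) and 5 lower, beside 24.0% and 23.2%. Hyper had 1 higher (CACNB2) and 5 lower, beside 18.7% and 17.2%. These counts of lower members again include CACNA1D and CACNA2D2, which the filter kept through the same 3 libraries. DOX against MYO kept 0 members and 0% of genes. The log2 fold change of CACNA2D2 was then -5.59, -5.63, -6.53 and -6.31 for DOX, MYO, RemoLV and Hyper. The contrast of the libraries labelled RemoLV with the mean of the other 4 groups uses the same 3 libraries under both namings. There 5 members were higher and 2 lower, beside 20.0% and 20.1% of genes: CACNA2D2 by 6.02 (SE 0.32), CACNA1D by 3.85 (SE 0.46), CACNA2D3 by 3.84 (SE 0.61, adjusted p = 7.64e-05), CACNA1I by 3.33 (adjusted p = 0.00032) and CACNA1H by 2.05 (adjusted p = 2.10e-05). CACNA2D2 and CACNA1D entered this count through the same 3 libraries, which alone carried them past the filter; with no filter their adjusted p-values were 5.73e-12 and 2.65e-06. CACNB2 gave -0.90 (SE 0.16, adjusted p = 0.00029) and CACNA1C -0.43 (SE 0.14, adjusted p = 0.0172), the latter lost without RemoLV 3 (adjusted p = 0.128) and with library totals (-0.18, adjusted p = 0.308).

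**Figure D3:**
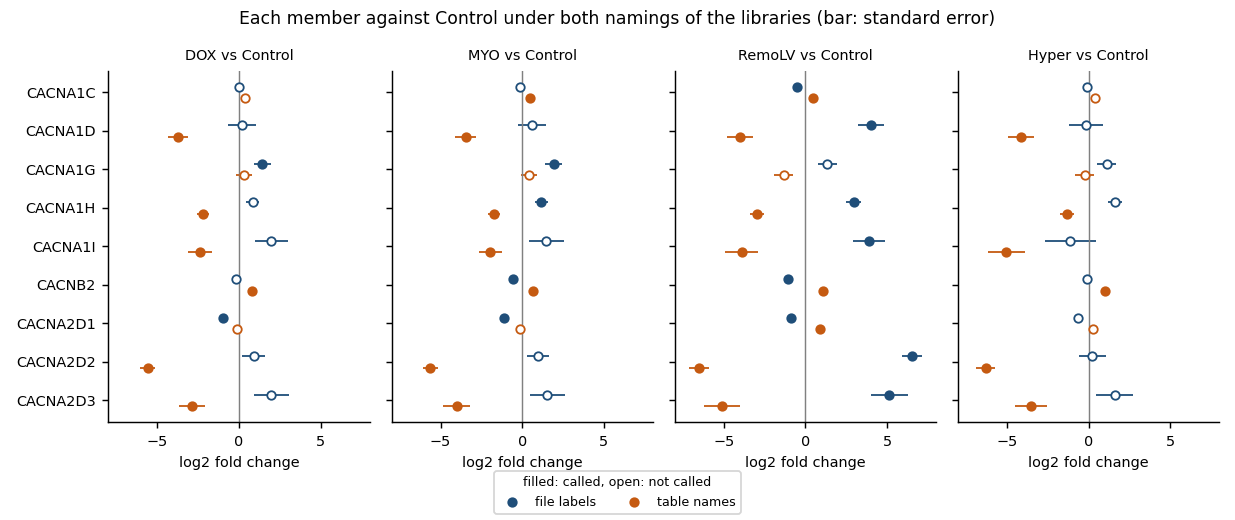
Each panel plots the log2 fold change of the 9 members against Control with its standard error, under the labels of the count files and under the names of the study's table, with filled points for an adjusted p of at most 0.05. CACNA2D2 in RemoLV stands at 6.53 under the file labels and at -6.53 under the table names.

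Other genes of the channel family were counted over fixed lists. Of 5 other pore genes (CACNA1A, CACNA1B, CACNA1E, CACNA1F, CACNA1S), 2 were abundant enough to test. CACNA1A, the P/Q-type pore of nerve terminals, was higher in DOX (1.35, SE 0.52, adjusted p = 0.0427) and MYO (1.33, SE 0.52, adjusted p = 0.0460), and CACNA1E was not called in any of the 4 comparisons with Control. CACNA1S, the skeletal muscle L-type pore, did not exceed 0.317 CPM in any library. Of 12 other auxiliary genes, 3 were tested. CACNB1, a beta subunit of skeletal muscle, was 0.494 to 1.60 CPM in Control and 3.87 to 5.62 CPM in the libraries labelled RemoLV (2.07, SE 0.35, adjusted p = 0.00013). CACNB3, a beta subunit of smooth muscle and neurons, gave 0.91 (SE 0.25, adjusted p = 0.00622) and CACNG6, a gamma subunit, 0.77 (SE 0.19, adjusted p = 0.00282) in the same comparison. CACNB1 and CACNG6 were called higher in DOX, and all 3 in MYO, where CACNB1 gave 1.32 and CACNB3 0.68, beside 21.0% and 20.7% of all genes called higher in these comparisons and 23.1% in RemoLV. These directions were the same with library totals in place of TMM scaling. Library totals raise the median of all genes in these comparisons, so that a higher direction kept under them adds no support.

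Of 22 regulators of the channel, 18 were found and tested. DOX had 5 higher and 4 lower, MYO 4 and 4, RemoLV 2 and 3, and Hyper none. Set against the shares of all genes given above (21.0% and 21.1% in DOX, 20.7% and 21.7% in MYO, 23.1% and 24.0% in RemoLV, 0% in Hyper), these counts under TMM scaling are near or below the background. By library totals the higher and lower regulators numbered 9 and 1 in DOX, 8 and 1 in MYO, 8 and 2 in RemoLV. The balance of higher and lower thus rests on the scaling, and library totals raise the median of all genes as given above. JPH2, junctophilin 2, which holds the junctional membrane near the L-type channel, was 63.8 to 70.8 CPM in Control and 146 to 163 CPM in DOX (1.19, SE 0.13, adjusted p = 3.34e-06). It was 130 to 185 CPM in MYO (1.17, SE 0.13, adjusted p = 4.12e-06). BIN1, which shapes transverse tubules, was also higher in DOX (0.73, SE 0.23, adjusted p = 0.0178) and MYO (0.70, SE 0.23, adjusted p = 0.0227). REM1, a small GTP-binding protein of a family that inhibits the channel, was higher in DOX (1.22), MYO (1.31) and RemoLV (1.66). CAMK2D, the main cardiac calcium and calmodulin dependent kinase, was lower in all of these, from -0.64 in DOX (SE 0.12) to -1.05 in RemoLV (SE 0.14), and by library totals the call held in RemoLV alone (-0.55, adjusted p = 0.00340). PPP3CA, a catalytic subunit of calcineurin, was lower in DOX (-0.84, SE 0.10) and higher in RemoLV (0.79, SE 0.11) under either scaling.

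Of 7 partners that move calcium after it enters, 6 were tested. DOX had 2 lower, MYO 4 lower, and RemoLV 1 higher and 3 lower, beside the same shares of all genes as above. By library totals the higher and lower partners numbered 1 and 2 in DOX, 2 and 2 in MYO, 3 and 2 in RemoLV. CASQ2, not called under TMM scaling, was then called higher by edgeR in MYO (0.35, adjusted p = 0.0435) and RemoLV (0.54, adjusted p = 0.00671). RYR2, the calcium release channel of the sarcoplasmic reticulum, was 1156 to 2090 CPM in Control and lower in DOX (-1.18, SE 0.20, adjusted p = 0.00018), MYO (-1.30, SE 0.20, adjusted p = 7.50e-05) and RemoLV (-1.02, SE 0.23, adjusted p = 0.00133). TRDN, triadin, which binds RYR2, was lower as well, at -1.66 (DOX), -1.58 (MYO) and -1.66 (RemoLV), and both genes stayed lower under library totals. SLC8A1, the sodium-calcium exchanger, was lower in MYO (-0.39) and RemoLV (-0.66), but by library totals it gave 0.06 and -0.13, neither called. ATP2A2, the calcium pump of the reticulum, was lower in MYO (-0.42, SE 0.15, adjusted p = 0.0302) and gave 0.26 (SE 0.17, adjusted p = 0.219) in RemoLV; by library totals it was 0.03 in MYO and 0.80 in RemoLV, the latter called higher (adjusted p = 0.00021). ASPH, whose products include junctin of the release complex, was higher in RemoLV (0.37, SE 0.12, adjusted p = 0.0145); by library totals it was called higher there (0.87) and also in DOX (0.37) and MYO (0.46). In Hyper edgeR called 0 of 6.

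Cell type markers moved with the libraries labelled RemoLV, and their part in the subunit values was not tested. Against the other 4 groups, all 6 atrial cardiomyocyte markers tested of the 9 listed were higher there (MYL4, MYL7, SLN, NR2F2, KCNJ3, TBX5), with a summed level of 9698 to 13006 CPM against 188 to 2503 CPM in the other 16 libraries. All 6 ventricular markers were lower (MYL2, MYL3, MYH7, IRX4, IRX5, HEY2), at 25022 to 29134 CPM against 44983 to 74548 CPM. Of the conduction system list SHOX2 was higher, and of the fibroblast list 5 of 7 tested and of the nerve and Schwann list 6 of 7 were. BMP10, a further atrial marker, was not tested: it was at 0 in Control, Hyper and DOX, at most 0.087 CPM in MYO and at most 0.169 CPM in the libraries labelled RemoLV, so that it was nearly absent there too. None of 6 smooth muscle markers and none of 4 blood markers was called in this contrast by edgeR. Endothelial markers were lower in 3 of 5, and of 8 markers shared by all cardiomyocytes 2 were higher and 5 lower, beside 20.0% of all genes higher and 20.1% lower in this contrast. Against Control, 3 of the 4 blood markers were lower both in RemoLV and in DOX (beside 24.0% and 21.1% of genes lower), 1 was lower in MYO, near the background of 21.7%, and 1, the leukocyte marker PTPRC, was higher in DOX. By library totals 2 of these blood markers stayed lower in RemoLV and 1 in DOX, and PTPRC was called higher in DOX and MYO. HCN4, the pacemaker channel, was at 0.891 to 2.46 CPM in the libraries labelled RemoLV and at most 0.087 CPM elsewhere, and is given as a level with no test.

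Within the other 16 libraries the marker sums also differed by group. Atrial markers summed to 188 to 252 CPM in Control, 332 to 1336 CPM in Hyper, 860 to 1340 CPM in MYO and 1204 to 2503 CPM in DOX, chiefly through MYL7, an atrial light chain. Of the 6 atrial markers tested, edgeR called only MYL4 and MYL7 higher in DOX and in MYO, and the rest were not called. The median log2 fold change of the 6 was 0.05 in DOX and -0.12 in MYO. Of the 6 ventricular markers, IRX4 and IRX5 were called higher in both drug groups and 0 lower. Fibroblast markers summed to 2076 to 3479 CPM in Control, 1563 to 3923 CPM in Hyper, 4798 to 7131 CPM in DOX and 4600 to 6692 CPM in MYO, and COL1A1, COL1A2 and COL3A1, fibrillar collagen genes, were called higher in both drug groups under either scaling. Under TMM scaling these were the only ones called higher of the 7 fibroblast markers tested, and PDGFRA was called lower in MYO. By library totals 5 were higher in DOX and 4 in MYO, with 0 lower in each. Of the 8 markers shared by all cardiomyocytes, DOX had 2 higher and 5 lower and MYO 2 higher and 4 lower against Control, but by library totals 3 higher and 0 lower, and 3 higher and 1 lower. These sums and counts move with the calls of CACNA1G, CACNA2D1, RYR2 and TRDN in the drug groups, and their part in them was not tested. As a description over these 16 libraries, the Spearman correlation with the atrial sum was 0.43 for CACNA1H, 0.51 for CACNA2D3, 0.71 for CACNA1I and -0.59 for CACNA2D1. With the fibroblast sum it was 0.68 for CACNA2D2 and -0.61 for CACNA2D1. CACNA2D2 held 1 to 8 counts in each of these libraries and CACNA1I 0 to 14, so that counting error weighs on their ranks. The values are a selection from all pairs of members and marker lists. The second Hyper library had the highest CACNA1H of the 16 (46.2 CPM) at an atrial sum of 415 CPM. These libraries share groups and scaling, so the values carry no test.

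**Figure D4:**
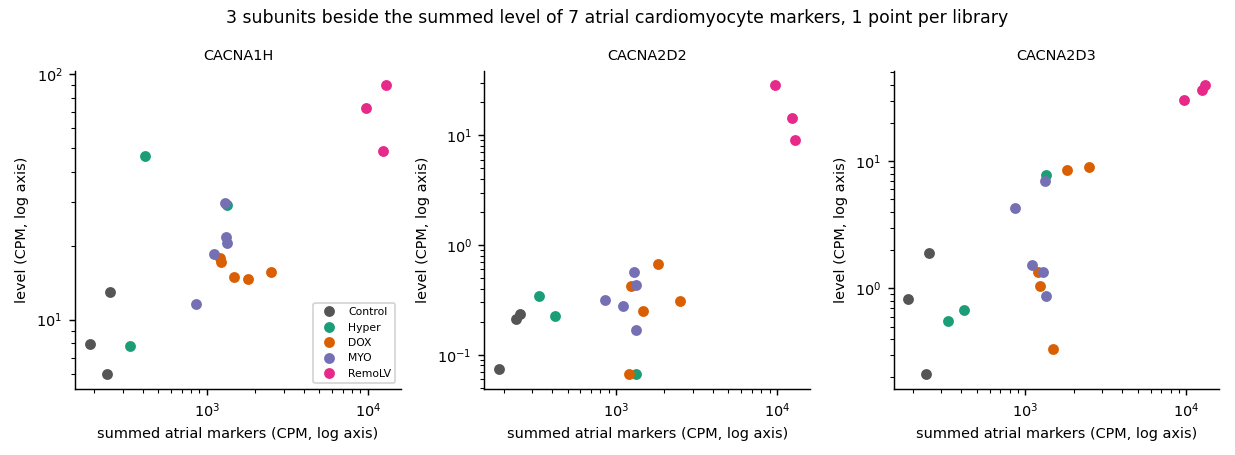
The panels plot the level of CACNA1H, CACNA2D2 and CACNA2D3 in CPM against the summed CPM of 7 atrial cardiomyocyte markers, both on log axes, with 1 point per library and colours for the groups. The 3 libraries labelled RemoLV stand at 9698 CPM or more of atrial markers and hold the highest value of each gene.

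Over the 19 libraries the Pearson correlation of log2 CPM was 0.69 between CACNA1H and CACNA2D3, -0.64 between CACNA1H and CACNB2 and 0.62 between CACNB2 and CACNA1C. CACNA1H and CACNA2D3 were higher in the 3 libraries labelled RemoLV than in the other 16, so that their correlations carry this difference. For CACNA1D and CACNA2D2, which held 0 to 8 counts in the other 16 libraries, a correlation restates that the 3 libraries labelled RemoLV are high. CACNA2D1 gave -0.69 against CACNA1G and 0.13 against CACNA1C. Among all tested genes with a symbol, those most like each member were SOD3 (0.96) and KCNH7 (0.95) for CACNA1D and LRRN2 (0.97) and HOXA2 (0.97) for CACNA2D2, with the limit just given, and CAMK1 (0.92) and HCN2 (0.90) for CACNA2D3. For CACNA1H they were SPSB3 (0.90) and MAMSTR (0.89), for CACNA1G CHPF (0.86) and TAOK2 (0.85), and for CACNA1I HSD11B2 (0.91) and GRAP2 (0.82). For CACNA2D1 they were QKI (0.97) and TAB2 (0.96), for CACNB2 OSBPL3 (0.87) and CHCHD3 (0.86), and for CACNA1C, the least matched member, TCEA3 (0.79) and ARHGAP35 (0.78). These are the top values out of all tested genes and describe these libraries only.

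In the RefSeq annotation of Sscrofa11.1, CACNA2D2 (chr13:32845110-32988851, minus strand), CACNA1D (chr13:35568534-35911483, plus strand) and CACNA2D3 (chr13:36222295-37025119, plus strand) lie within 4180.0 kb of chromosome 13. CACNA1D and CACNA2D3 are 310.8 kb apart and CACNA2D2 and CACNA1D 2579.7 kb. The other members are at chr5:69016954-69448428 (CACNA1C), chr5:8593014-8702734 (CACNA1I), chr12:26838633-26912344 (CACNA1G), chr3:40637420-40694616 (CACNA1H), chr10:44321954-44887410 (CACNB2) and chr9:97781057-98265925 (CACNA2D1). The 250 bases before the annotated start are shown for CACNA2D2 and CACNA1D, the members of this stretch that were close to undetected outside the libraries labelled RemoLV, with motif matches in capitals.
CACNA2D2, chr13:32988852-32989101, minus strand: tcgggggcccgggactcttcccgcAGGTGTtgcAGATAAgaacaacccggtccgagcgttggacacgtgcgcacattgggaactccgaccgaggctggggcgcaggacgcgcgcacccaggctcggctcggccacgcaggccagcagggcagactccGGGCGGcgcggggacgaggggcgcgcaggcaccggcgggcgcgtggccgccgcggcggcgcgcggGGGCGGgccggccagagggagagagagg
CACNA1D, chr13:35568284-35568533, plus strand: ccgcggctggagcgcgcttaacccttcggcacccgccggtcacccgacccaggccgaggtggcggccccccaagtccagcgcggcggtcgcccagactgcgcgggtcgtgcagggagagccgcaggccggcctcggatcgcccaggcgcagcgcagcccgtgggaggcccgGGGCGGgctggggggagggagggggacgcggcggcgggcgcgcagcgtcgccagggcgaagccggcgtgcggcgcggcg
Motifs were searched on both strands from 250 bases before to 50 after the start. A T-box match (AGGTGT) stands at -226 and a GATA match (AGATAA) at -217 of CACNA2D2, and both genes have GC boxes (GGGCGG), at -93 and -28 in CACNA2D2 and at -79 in CACNA1D. Of 19530 promoters of this length, 12.1% hold the T-box letters, 9.17% the GATA letters, 50.6% the GC box, 14.1% the nuclear receptor half-site AGGTCA and 10.9% the TATA box TATAAA. The GC content was 75.7% and 80.7% over the same windows, against a median of 58.7%. A match describes the letters of the window and no binding was measured.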

How the data were processed

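RNA-seq was made from poly(A)-selected, strand-specific libraries of pig myocardium. Per the labels, the authors aligned read pairs to Sscrofa11.1 with STAR (version not given in the labels) and made counts per Ensembl gene with HTSeq 0.11.1, counting by strand; the deposited count files hold raw counts without normalization. The deposited table holds expression values on a log2 scale, made by the authors from these counts and used here only to match names by rank, and the authors' DESeq2 log2 fold changes and adjusted p-values, which were not used. CPM used TMM-scaled library sizes. Counts were tested in R 4.3.3 with edgeR 4.0.16 (quasi-likelihood test, all 5 groups and 19 libraries in 1 model, filterByExpr, Benjamini-Hochberg over all genes tested, called at an adjusted p of at most 0.05), with DESeq2 1.42.0 as an alternative. The test was tried on simulated data with known changes. Correlations used log2(CPM + 0.5). A floor of 3 counts per library was used, and ratios of summed counts have exact 95% intervals. Sequences and motifs were read with Python 3.11.15 and pyfaidx 0.9.0.4 from the RefSeq genome and annotation of the same build.

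The members and gene lists were chosen with earlier results of these data known. Named were all members, any list gene called in the comparison under discussion or used to check a label, and the 2 tested genes most correlated with each member. STAC, PLN, NPPA, KCNA5 and some others of the lists had no symbol match, and the full count of the conduction system list is not reported here. Each library is 1 pig, so the p-values of the main fit use the spread between pigs within groups, estimated from all 5 groups together. Precision was limited by totals from 9527710 to 20370209 counts. No 2 libraries agreed within counting noise: the lowest mean chi-square per gene was 11.6. Replicate numbers did not pair the samples: over 32 pairs with the same number, residual correlations ran from -0.26 to 0.28 with a median of 0.00435. Alternatives were the table's names, DESeq2, its size factors, 2 filters, fewer groups, the replicate block and each library left out.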

Additional observations from a re-analysis of the deposited data

Results flagged for a closer look

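In 18 groups of 5 libraries, which are the 9 members in DOX and in MYO, 2 libraries lay far from the rest of their group by Dixon's gap test; chance alone marks about 1 in 20 such groups. CACNA1G in MYO 2 was 6.44 CPM, a gap of 0.766 of the group's whole range. CACNB2 in DOX 4 was 22.1 CPM, a gap of 0.720 of the range, and the other 4 DOX libraries lay within the Control range of 27.9 to 33.9 CPM.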

How the results depend on the processing

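The naming of the libraries moved the results most, and no file decides it. Under the table's names the members called were 6 in DOX, 7 in MYO and 6 in Hyper against Control. The log2 fold changes that turned sign there, among those called under either naming, were, in DOX, CACNA1D -3.74, CACNA1H -2.19, CACNA1I -2.38, CACNB2 0.82, CACNA2D2 -5.59 and CACNA2D3 -2.88. In MYO they were CACNA1C 0.47, CACNA1D -3.47, CACNA1H -1.74, CACNA1I -1.96, CACNB2 0.68, CACNA2D2 -5.63 and CACNA2D3 -4.01. In RemoLV they were CACNA1C 0.49, CACNA1D -4.00, CACNA1H -2.96, CACNA1I -3.91, CACNB2 1.10, CACNA2D1 0.92, CACNA2D2 -6.53 and CACNA2D3 -5.12, and in Hyper CACNA1H -1.34, CACNB2 1.02, CACNA2D2 -6.31 and CACNA2D3 -3.53. Also of opposite sign, but called under neither naming, were CACNA1C (0.35 in DOX, 0.41 in Hyper), CACNA1G (-1.34 in RemoLV, -0.25 in Hyper) and CACNA2D1 (0.24 in Hyper). Library totals in place of TMM scaling turned CACNA1C to 0.41 in DOX (called higher) and to 0.017 in RemoLV, with 4 members called in DOX and 1 in both drug groups against Hyper. DESeq2 called 1 member in Hyper and 1 in both drug groups against Hyper, where edgeR without the 3 libraries labelled RemoLV also called 1. Requiring 10 counts in every library removed 4 members before testing and left 4 called in RemoLV against Control and 3 in the libraries labelled RemoLV against the other groups. With 1 library left out, the members called ran from 1 to 2 in DOX, from 2 to 4 in MYO, from 0 to 2 in Hyper and from 0 to 2 in both drug groups against Hyper; the fits that changed them are named beside the genes. DESeq2's size factors in edgeR and no filter changed none of these counts by over 1.5 times. With the replicate number as a replicate block the members called were 2, 3 and 8 for DOX, MYO and RemoLV, and CACNA1H in MYO lost its call (1.14, adjusted p = 0.0632). Depth limits CACNA1D, CACNA1I and CACNA2D2, with 0 to 14 counts per library outside the libraries labelled RemoLV.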
